A study of Homo sapiens with 6 samples.

Results

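*BGN*, *DCN* and *LUM* encode biglycan, decorin and lumican, the small leucine-rich proteoglycans found among the 1161 genes of the deposited table. They were taken by gene symbol and are 3 of these 1161 genes. The 3 genes were chosen by their counts in these libraries, with earlier results in view, and the authors had already picked the genes of the table for differing between the populations. The differences between the populations are therefore a description, with no test. The data are mRNA sequencing of 6 libraries of MDA-MB-231, an established human breast cancer cell line, which carried green fluorescent protein (GFP). All cells had been labelled with CellVue Claret (CV), a dye of the cell membrane that dividing cells lose by dilution, and had been injected into the internal carotid artery of female C.B-17 SCID mice aged 6 to 8 weeks. At day 28, cells that had kept the dye were sorted as dormant (GFP+CV+) and cells that had lost it as proliferating (GFP+CV-), with 3 libraries of each. Each same-numbered pair came from 1 pool of brains, of 10 mice for replicates 1 and 2 and of 9 mice for replicate 3, so single mice cannot be told apart. Both populations shared the cell line, dye, hosts and time point and differed by the sorting gate for the dye. The paper reports that GFP+CV+ cells were a small share of the GFP+ cells isolated. The number of cells behind each library was not analysed here.

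Small leucine-rich proteoglycans are secreted proteins whose core is built of leucine-rich repeats and carries glycosaminoglycan chains. They bind collagen fibrils and control how these assemble, and biglycan and decorin also bind growth factors of the transforming growth factor β (TGFβ) family. Biglycan and decorin, of class I, carry chondroitin or dermatan sulfate, whereas lumican, of class II, carries keratan sulfate in the cornea and is poorly sulfated elsewhere. In the brain the 3 genes are known mainly from fibroblasts of the meninges and of vessel walls.

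The 2 classes can be seen in the coding sequence. Before the leucine-rich repeats each protein has a cluster of 4 cysteines, and the spacing of these cysteines differs between the classes. The stretches below, read from the principal (MANE) transcripts of GENCODE release 44, are shown because they place the 3 genes in the family. Cysteine codons are in capitals and the other codons in lower case.

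BGN, codons 63 to 76 of 368: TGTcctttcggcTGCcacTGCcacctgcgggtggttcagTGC

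DCN, codons 54 to 67 of 359: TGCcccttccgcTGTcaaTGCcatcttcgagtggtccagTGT

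LUM, codons 37 to 53 of 338: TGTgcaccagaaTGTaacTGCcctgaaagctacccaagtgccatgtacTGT

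In *BGN* and *DCN* the cysteine codons were separated by 3, 1 and 6 other codons, and in *LUM* by 3, 1 and 9. The stretch was thus 42 bases long in the class I genes and 51 bases long in *LUM*.

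*BGN* (ENSG00000182492.15) lies on the plus strand of chromosome X at 153494980 to 153509546 (GRCh38), with 8 exons in its principal transcript and 2404 bases covered by exons of any transcript. Its start is overlapped by *HAUS7* on the opposite strand, at 153447668 to 153495516. Smart-seq2 libraries do not mark the strand, so reads from the overlap cannot be told apart, and *HAUS7* was not analysed here. *DCN* (ENSG00000011465.16) lies on the minus strand of chromosome 12 at 91140484 to 91183217, with 8 exons and 12941 exonic bases, of which the principal transcript holds 6850. *LUM* (ENSG00000139329.4) is on the same strand at 91102629 to 91111494, with 3 exons and 2671 exonic bases. *DCN* and *LUM* are neighbours, with 28990 bases between them. *KERA* and *EPYC*, other members of the family, lie beyond *LUM* and were not analysed here. Of the 5 protein-coding genes within 1 Mb of *DCN*, 2 were in the table, *LUM* and *BTG1*. Within 1 Mb of *BGN* 4 of 64 protein-coding genes were in the table.

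No stretch of 31 bases was shared between the transcripts of the 3 genes. Of all stretches of 31 bases, 1.74% in *BGN* and 1.02% in *DCN* also occurred in transcripts of other human genes, and none of the 2697 in *LUM* did. Mouse transcripts were not compared, so these shares do not tell how far reads of the mouse genes could be taken for human ones.

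The 250 bases before the start of *BGN* are shown because *BGN* had the highest level of the 3 genes. RefSeq promoter sequence (GRCh38.p14) was at hand for 1 of the 3 genes. On the plus strand, with the GC box, GGGCGG or CCGCCC, in capitals, it reads:

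BGN, chrX:153494730-153494979: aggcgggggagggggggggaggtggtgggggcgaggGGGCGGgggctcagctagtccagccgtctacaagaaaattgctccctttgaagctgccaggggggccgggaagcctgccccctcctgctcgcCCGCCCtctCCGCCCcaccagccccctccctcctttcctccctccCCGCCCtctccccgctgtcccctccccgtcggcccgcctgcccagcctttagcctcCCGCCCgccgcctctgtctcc

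This window was 74% G and C, against a median of 58% over the 35116 promoters of the same length in the RefSeq table. It held 5 GC boxes, the letters bound by Sp1, and 42.6% of all promoters held at least 1 on either strand. None of 3 other motifs, searched on both strands, was found in it. These were the TATA box TATAAA, held by 10.7% of promoters, the AP-1 site TGANTCA, held by 6.57%, and the SMAD palindrome GTCTAGAC, held by 0.182%.

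*BGN*, which encodes biglycan, had 4762, 7911.67 and 3346.33 estimated counts in dormant (GFP+CV+) replicates 1, 2 and 3, and 20, 10 and 12 in proliferating (GFP+CV-) replicates 1, 2 and 3. Divided by the size factor of each library these were normalized read counts of 4528, 7595 and 4622 in dormant cells and of 14.5, 10.8 and 9.75 in proliferating cells. The lowest dormant library was 312-fold above the highest proliferating one. On average dormant cells had 5582 ± 1745 and proliferating cells 11.7 ± 2.50 normalized read counts (SD, n = 3), a ratio of 478. Since each library holds the RNA of many cells, more expressing cells and more RNA per cell cannot be told apart.

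*DCN*, which encodes decorin, had 985, 769 and 22 estimated counts in dormant replicates 1, 2 and 3, and 0, 2 and 4 in proliferating replicates. Its normalized read counts were 937, 738 and 30.4 in dormant cells and 0, 2.16 and 3.25 in proliferating cells. Dormant replicate 3 stood far below the other two dormant libraries, but was still 9.35-fold above the highest proliferating library. Dormant cells had 568 ± 476 and proliferating cells 1.80 ± 1.65 normalized read counts (SD, n = 3), a ratio of 315.

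*LUM*, which encodes lumican, had 338, 1047 and 3033 estimated counts in dormant replicates 1, 2 and 3 and 6, 2 and 8 in proliferating replicates. Its normalized read counts were 321, 1005 and 4190 in dormant cells and 4.35, 2.16 and 6.50 in proliferating cells. Here dormant replicate 3 was the highest library, and the lowest, dormant replicate 1, was 49.4-fold above the highest proliferating library. Dormant cells had 1839 ± 2064 and proliferating cells 4.34 ± 2.17 normalized read counts (SD, n = 3), a ratio of 424.

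**Figure D1:**
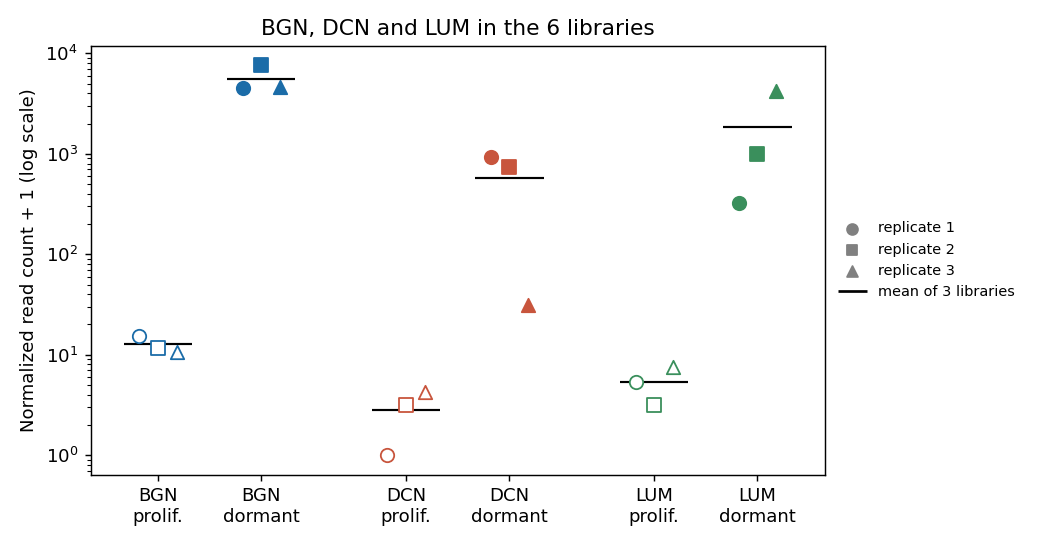
Normalized read count plus 1 of each gene, on a log scale, in the 3 proliferating (open symbols) and 3 dormant (filled symbols) libraries, where shapes are replicates and bars the mean. All dormant libraries lie above all proliferating ones, and dormant replicate 3 (triangles) is the lowest dormant library for *DCN*, at 30.4, and the highest for *LUM*, at 4190.

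Thus for *BGN*, *DCN* and *LUM* each dormant library lay above each proliferating library. The same held for 569 listed genes with higher dormant libraries (49%) and 583 with lower ones (50.2%), together 99.2%, which the selection of the table fixes. In edgeR's quasi-likelihood fit over the 1161 genes, with Benjamini-Hochberg adjusted p under 0.05 as the threshold, 576 genes (49.6%) were called higher and 581 (50%) lower in dormant cells, together 99.7%, and the 3 genes were among the higher ones. Nothing is read from these calls. The fitted log2 fold change, dormant over proliferating, was 8.88 (SE 0.40) for *BGN*, 8.25 (SE 1.67) for *DCN* and 8.66 (SE 1.21) for *LUM*. By this fold change they ranked 5, 13 and 8 from the top of the 1161 genes. By mean level in dormant cells, not corrected for length, they ranked 369, 855 and 669.

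The fold changes of the 3 genes were close, but their precision was not. Between the dormant libraries the highest normalized read count was 1.68-fold above the lowest for *BGN*, 30.8-fold for *DCN* and 13.0-fold for *LUM*. As a coefficient of variation the spread was 31.3%, 83.8% and 112%. Among the 29 genes that were at least 64-fold higher in dormant cells, this coefficient ranged from 24.0% to 123% with a median of 83.8%. It was lower than that of *BGN* in 2 of these genes, lower than that of *DCN* in 14 and lower than that of *LUM* in 23. *BGN* was thus among the most even genes of this group, *DCN* was its median, and *LUM* was among the more uneven. The choice of the 29 genes itself uses the values of these dormant libraries.

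Within each same-numbered pair, sorted from the same brains, *BGN* was higher in dormant cells by 312-fold in replicate 1 (95% exact counting interval 202 to 512), by 704-fold in replicate 2 (383 to 1470) and by 474-fold in replicate 3 (271 to 918). These intervals overlap. *LUM* was higher by 73.9-fold (33.6 to 203), 466-fold (129 to 3854) and 644-fold (327 to 1494), and the intervals of replicates 1 and 3 do not overlap. With counts divided by 2 these *LUM* intervals were 24.9 to 362 in replicate 1 and 251 to 2367 in replicate 3, and they overlap. With 3 reads taken as the limit of the proliferating library, which had 0 reads, *DCN* was 431-fold higher in replicate 1. The exact 95% lower limit of this ratio was 349.6, and 174 with counts divided by 2. It was 342-fold higher in replicate 2 (94.4 to 2832) and 9.35-fold higher in replicate 3 (3.17 to 37.3). The pair with the smallest ratio was therefore replicate 1 for both *BGN* and *LUM* and replicate 3 for *DCN*.

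**Figure D2:**
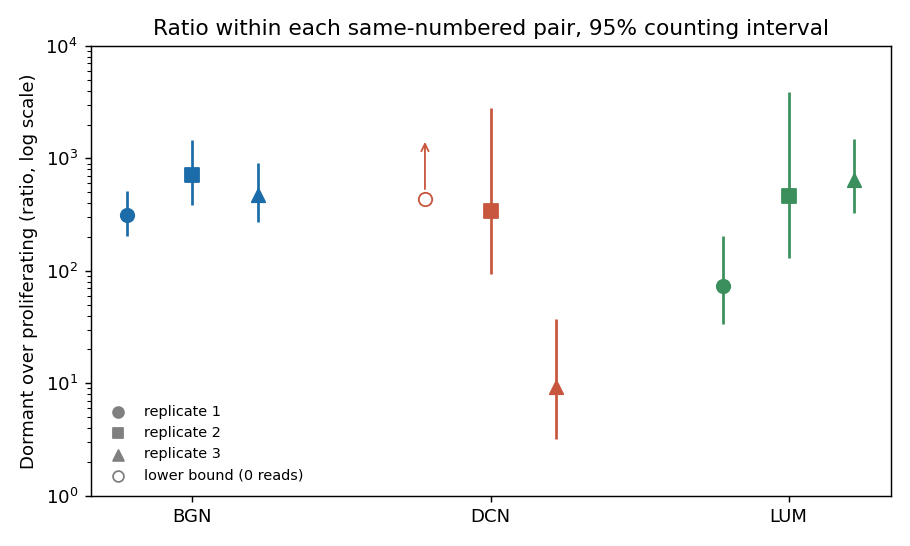
Dormant over proliferating normalized read count within each same-numbered pair, on a log scale, with 95% exact intervals that cover counting error only. The open circle with an arrow, drawn as a lower bound, is *DCN* in replicate 1, where 3 reads stand for 0 proliferating reads. The exact 95% lower limit of this ratio was 349.6. *BGN* lies between 312 and 704 in all pairs, whereas *DCN* falls to 9.35 in replicate 3.

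Counting intervals and limits cover counting error only, because reads copied by PCR are not independent molecules. All 8 counts above 0 of the 3 genes in proliferating libraries were even, as were 64.2% to 87.9% of whole counts from 1 to 50 in each library. With counts divided by 2, the interval of *DCN* in replicate 3 widened to between 2.04 and 86.8, and that of *BGN* in replicate 1 to between 170 and 652.

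Whether the genes were high in the same libraries differed between the dormant replicates. All 3 genes were above their proliferating levels in every dormant library, but no dormant library was the highest for all of them. *DCN* was highest in dormant replicate 1, *BGN* in replicate 2 and *LUM* in replicate 3. For each *DCN* read there were 0.343 *LUM* reads in dormant replicate 1 (95% exact interval 0.302 to 0.389), 1.36 in replicate 2 (1.24 to 1.5) and 138 in replicate 3 (90.9 to 220). The ratio of these neighbouring genes therefore differed by 402-fold between libraries of the same population, and the 3 intervals do not overlap. *BGN* over *LUM* was 14.1, 7.56 and 1.10 in dormant replicates 1, 2 and 3, a range of 12.8-fold. *BGN* over *DCN* was 4.83, 10.3 and 152, a range of 31.5-fold. In proliferating replicate 1 *LUM* had 6 reads and *DCN* 0, which gives *LUM* over *DCN* a 95% lower limit of 1.18. In replicate 2 they had 2 reads each (interval 0.0725 to 13.8), and in replicate 3 *LUM* had 8 and *DCN* 4 (0.536 to 9.08). The upper limits of replicates 2 and 3 lie below the interval of dormant replicate 3. These limits take each read as independent. They were not computed with counts divided by 2, which would widen them.

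The summed normalized read count of the 3 genes was more even than *DCN* or *LUM* alone, at 5786, 9339 and 8842 in dormant replicates 1, 2 and 3. In proliferating replicates it was 18.8, 15.1 and 19.5. *BGN*, which gave most of the reads in each dormant library, was itself even there, with a range of 1.68-fold. Of the 6085 reads of the 3 genes in dormant replicate 1, *BGN* took 78.3% (95% Clopper-Pearson interval 77.2% to 79.3%), *DCN* 16.2% (15.3% to 17.1%) and *LUM* 5.55% (4.99% to 6.16%). Of the 9728 reads in dormant replicate 2, *BGN* took 81.3% (80.5% to 82.1%), *DCN* 7.91% (7.38% to 8.46%) and *LUM* 10.8% (10.2% to 11.4%). In dormant replicate 3, with 6401 reads, *BGN* took 52.3% (51.0% to 53.5%), *DCN* 0.344% (0.216% to 0.520%) and *LUM* 47.4% (46.2% to 48.6%). Biglycan mRNA thus gave more than any other of the 3 in each dormant library, and nearly all the rest in replicate 3 was lumican mRNA. Proliferating libraries held 26, 14 and 24 reads of the 3 genes, of which *BGN* took 76.9% (56.4% to 91.0%), 71.4% (41.9% to 91.6%) and 50% (29.1% to 70.9%). Those shares are too imprecise to tell the proliferating libraries from each other.

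**Figure D3:**
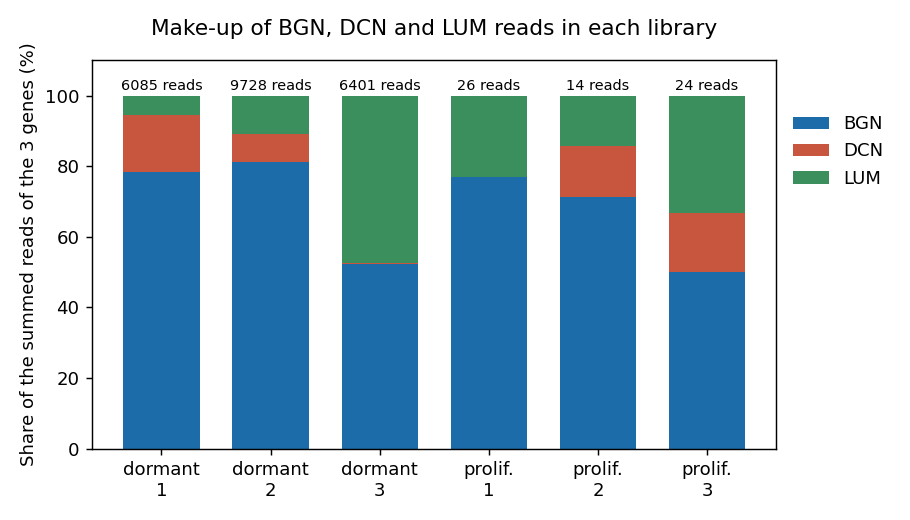
Share of *BGN*, *DCN* and *LUM* in their summed reads, in percent, for each library, with the number of reads above the bar. *DCN* takes 16.2%, 7.91% and 0.344% in dormant replicates 1, 2 and 3, and *LUM* 5.55%, 10.8% and 47.4%, while the proliferating bars rest on 26, 14 and 24 reads.

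Longer transcripts give more reads per molecule, so levels of different genes were compared per kilobase of exon. On this scale *BGN* was at 1883, 3160 and 1923 normalized read counts per kilobase in dormant replicates 1, 2 and 3, and *LUM* at 120, 376 and 1569. *DCN* was at 72.4, 57.0 and 2.35. In each dormant library the order was thus *BGN*, *LUM*, *DCN*. The spread of *LUM* over the libraries reached close to the lowest *BGN* value. The order of *LUM* and *DCN* in dormant replicate 1 depends on the length used. Per kilobase of the principal transcript *DCN* was at 137, 108 and 4.44, so that in replicate 1 *LUM* was at 0.880 of *DCN*, and above it by 3.49-fold and 354-fold in replicates 2 and 3.

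Dormant replicate 3 was set against the mean of dormant replicates 1 and 2 over all 1074 listed genes with reads in either of these. The median ratio was 1.07, and *LUM* ranked 15 from the top, *DCN* 66 from the bottom and *BGN* 197 from the bottom. Among the 99 genes that were at least 8-fold higher in dormant cells, a choice that itself uses the values of replicate 3, the median in this library was 2.50-fold of the mean of dormant replicates 1 and 2, and 72 of the 99 had their highest dormant value in replicate 3, against 17 in replicate 2 and 10 in replicate 1. *LUM*, at 6.32-fold, was in the direction of most and ranked 10 from the top. *BGN*, at 0.763, ranked 12 from the bottom. *DCN* was 27.6-fold lower in replicate 3 than the mean of the others, the second lowest of the 99, and 2 of the 99 were more than 10-fold lower. *DCN* and *LUM* thus lay near opposite ends of the same list.

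Genes whose products make, bind or cut these proteoglycans were taken from lists of the family and its partners. Of 18 genes of the family, the 3 described above were in the table, and the others were not analysed here. Of 130 genes in the other lists 13 were in the table, of which 10 rose and 3 fell in dormant cells. Their median log2 fold change was 1.68, against -0.33 over all 1161 genes. Their Benjamini-Hochberg adjusted p from edgeR ranged from 0.00321 to 0.0108, but almost every listed gene was called, and the table holds selected genes, so these counts are not independent evidence of a direction.

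The largest group was that of collagens and other matrix partners, of which 5 of 31 genes were in the table and all 5 rose. *COL3A1*, which encodes the chain of type III collagen, had 24777, 39897 and 25608 normalized read counts in dormant replicates 1, 2 and 3 and 1455, 1352 and 3838 in proliferating replicates, a log2 fold change of 3.76 (SE 0.46). *COL1A1*, for a chain of type I collagen, had 15447, 25270 and 35947 in dormant and 2633, 3783 and 3635 in proliferating libraries, a log2 fold change of 2.93 (SE 0.32). Unlike the proteoglycans, both collagens had over 1000 normalized read counts in each proliferating library. *MATN3* (matrilin-3, a matrix adaptor protein) rose by 4.21 (SE 0.97), *SPARC* (a collagen-binding matricellular protein) by 2.13 (SE 0.36) and *THBS2* (thrombospondin-2, also matricellular) by 1.68 (SE 0.37) on the log2 scale.

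Of 31 genes for glycosaminoglycan synthesis 2 were in the table and both rose. *DSEL*, an epimerase-like enzyme that makes dermatan sulfate, rose by 1.93 (SE 0.55) on the log2 scale, with 406, 531 and 805 normalized read counts in dormant and 104, 160 and 192 in proliferating replicates. *B3GAT3*, which completes the linker between core protein and chain, rose by 0.73 (SE 0.20). Of 17 growth factors and related ligands, *TGFB2*, a ligand of the TGFβ family, was in the table and rose by 0.70 (SE 0.18).

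Of 31 receptor genes 3 were in the table. *ITGA1*, the collagen-binding integrin α1, rose by 1.72 (SE 0.41) and *BMPR2*, a receptor of bone morphogenetic proteins, by 1.19 (SE 0.33) on the log2 scale. *ITGB2*, the β2 integrin subunit of leukocytes, had 2.85, 24.0 and 5.53 normalized read counts in dormant and 1026, 1281 and 184 in proliferating replicates, and fell by 6.23 (SE 1.17). Of 20 proteases and inhibitors 2 were in the table, and both fell. *ADAMTS1*, a protease of matrix proteoglycans, had 1.90, 0 and 2.76 normalized read counts in dormant libraries, from 4 reads in all, and 964, 670 and 94.3 in proliferating libraries. Its fitted log2 fold change of -8.50 (SE 1.39) rests on these few reads. *TIMP1*, an inhibitor of matrix metalloproteinases, fell by 0.93 (SE 0.17).

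**Figure D4:**
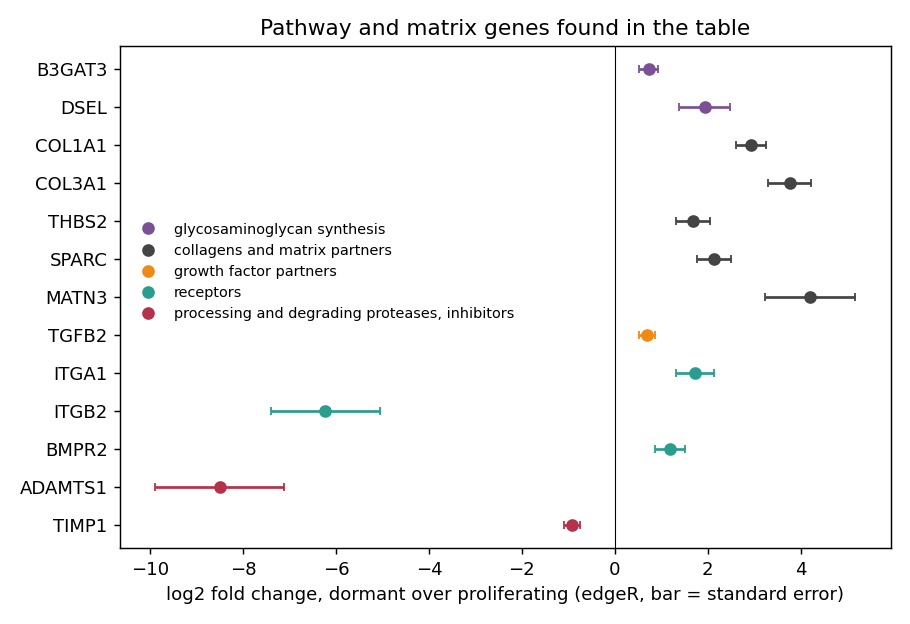
Log2 fold change, dormant over proliferating, of the 13 partner genes in the table, with the edgeR standard error as bars and colours for the lists. The 5 matrix partners lie between 1.68 and 4.21, and *ITGB2* and *ADAMTS1* lie at -6.23 and -8.50.

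Among the dormant libraries the ratio of *BGN* to *COL3A1* was nearly fixed, at 0.183, 0.190 and 0.180 of it in replicates 1, 2 and 3. This ratio ranged over 1.05-fold, the smallest range among the 989 listed genes for which it could be formed. It did not extend to *COL1A1*, to which *BGN* stood at 0.293, 0.301 and 0.129, a range of 2.34-fold that ranked 579. To *THBS2*, *SPARC* and *MATN3* the range was 1.47-fold, 1.59-fold and 1.82-fold, which ranked 90, 165 and 354. *DCN* ranged over 31.9-fold to 71.7-fold against the 5 matrix partners, with ranks of 368 to 839 among the 989 genes. *LUM* ranged over 5.60-fold, against *COL1A1*, to 12.6-fold, against *COL3A1*, with ranks of 105 to 558. With 3 libraries these ratios are a description.

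**Figure D5:**
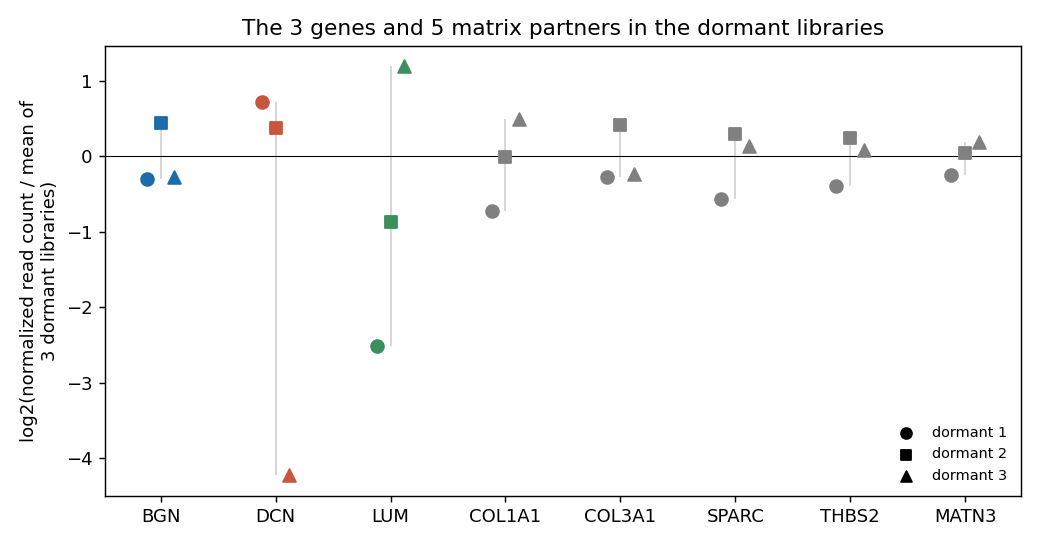
Normalized read count in each dormant library over the gene's mean of the 3 dormant libraries, on a log2 scale, for the 3 proteoglycan genes and 5 matrix partners, with shapes for replicates and grey lines for the range. *DCN* and *LUM* span the widest ranges, 30.8-fold and 13.0-fold, in opposite order of replicates 1 and 3, and *BGN* and *COL3A1* lie alike.

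The genes with the most similar profiles were found among 1153 candidates as those with the smallest root mean square difference of centred log2(normalized read count + 1) values over the 6 libraries. The nearest to *BGN* were *APOE* (0.65), *FMO2* (0.77), *SPARCL1* (0.77), *ACKR3* (1.08) and *LUM* itself (1.28). The nearest to *LUM* were *HIF3A* (0.67), *FMO2* (0.79), *AC090236.2* (0.83), *SPARCL1* (0.83) and *AC022537.1* (0.93). The nearest to *DCN* were *ACKR3* (1.02), *CYTIP* (1.51), *RF00425* (1.60), *AC007608.2* (1.73) and *TCF4* (1.82).

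*ACKR3*, an atypical chemokine receptor, shared with *DCN* a low value in dormant replicate 3, with 358, 463 and 85.6 normalized read counts in dormant replicates 1, 2 and 3 and 0, 0 and 1.63 in proliferating replicates. *HIF3A*, which encodes a hypoxia-inducible transcription factor, had its highest value in dormant replicate 3 as *LUM* did, with 119, 527 and 1089 in dormant and 0, 0 and 4.88 in proliferating libraries. Between the 3 genes the differences were 1.28 for *BGN* and *LUM*, 1.94 for *BGN* and *DCN* and 2.73 for *DCN* and *LUM*. *LUM* was the fifth nearest gene to *BGN*, and *LUM* ranked 73 from *DCN* and *DCN* ranked 105 from *LUM*. *BGN* ranked 9 from *DCN* and 8 from *LUM*. These distances rest mainly on the difference between the populations for which the genes were chosen.

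Over the 3 dormant libraries alone, a measure added after the data had been seen, *COL3A1* was the nearest gene to *BGN* at 0.03, and *BOLA2P3* to *LUM* at 0.25. *PRR5L* was the nearest to *DCN* at 0.30, although it was lower in dormant cells by a log2 fold change of -3.24. *HMOX2* (0.04), *SELENOT* (0.06) and *YIPF1* (0.07) were almost as near to *BGN* as *COL3A1*, although they were lower in dormant cells, with log2 fold changes of -0.92, -0.83 and -0.90. From *BGN*, *LUM* then ranked 1118 of 1153 and *DCN* 1144, at differences of 1.56 and 2.11. From *LUM*, *DCN* ranked 1151, at a difference of 3.68. From *DCN*, *BGN* ranked 226 and *LUM* 1141, and from *LUM*, *BGN* ranked 790. Within the dormant libraries *DCN* and *LUM* were thus far apart. How near *BGN* ranked to either depended on the gene from which the rank was taken.

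A table of selected genes cannot serve as a check of cell identity. Markers of the labelled cell line were in the table for 5 of 8 genes and were high in all libraries. Their summed normalized read count was 229477 to 300385 in dormant and 425235 to 485337 in proliferating libraries, and each of *KRT8*, *KRT18*, *S100A4*, *CAV1* and *LGALS1* was lower in dormant cells, where the median of their log2 fold changes was -0.75. With scaling by the totals of the listed genes, *KRT8*, *KRT18* and *CAV1* were no longer called, with edgeR adjusted p of 0.0631, 0.0564 and 0.0577. Most markers of other cells that were in the table were higher in dormant cells, as the 3 proteoglycan genes were, but *ITGB2* was lower. The genes of the table had been picked for differing between the populations. Of 22 fibroblast markers other than these genes 3 were in the table and rose (*COL1A1*, *COL3A1* and *PDGFRB*), with a sum of 42780 to 69592 in dormant and 4554 to 7750 in proliferating libraries. Of 12 mural cell markers 2 were in the table and rose (*PDGFRB* and *NOTCH3*), from 280 to 468 in proliferating to 2879 to 5452 in dormant libraries. Of 11 astrocyte markers 4 were in the table and rose (*APOE*, *SPARCL1*, *SLC1A3* and *PTPRZ1*), with a sum of 4007 to 9218 in dormant and 580 to 1367 in proliferating libraries. *PTPRZ1* overlapped between the populations, at 22.8 in dormant replicate 1 and 28.0 in proliferating replicate 2. Its call was lost without proliferating replicate 3 (edgeR adjusted p = 0.0539). *APOE*, one of these astrocyte markers and the nearest gene to *BGN*, had 466, 774 and 254 normalized read counts in dormant replicates and 2.90, 0 and 0 in proliferating replicates. Of 16 macrophage and microglia markers 2 were in the table, of which *CD4* rose and *ITGB2* fell, and their sum was 1063 to 1753 in dormant and 202 to 1299 in proliferating libraries. None of 8 endothelial and none of 11 oligodendrocyte and neuron markers was in the table, and these were not analysed here. The part of these markers in the result was not tested.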

How the data were processed

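Both populations were sequenced from Smart-seq2 and Nextera XT libraries. Per the labels and the study's methods, reads were trimmed with Cutadapt, aligned with STAR 2.7 to joined human (GRCh38.p12) and mouse (GRCm38.p6) assemblies, and reads mapping to mouse were discarded while those mapping to several places were kept. The table deposited by the authors holds estimated counts, of which 43.2% to 49.6% per library were not whole, and normalized read counts, a signal obtained by dividing counts by 1 size factor per library (0.724 to 1.38). Columns with the authors' own mean, fold changes, errors and p-values were not used. The estimated counts of the 1161 genes summed to 7978664 to 17928777 per library, which is part of a library and not its depth.

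Estimated counts were rounded and fitted with edgeR 4.0.16 (quasi-likelihood test, R 4.3.3) with the authors' size factors, the population as the term, all 6 libraries and two-sided p-values, with Benjamini-Hochberg adjustment over the 1161 listed genes. The standard error (SE) is the log2 fold change over the square root of F. DESeq2 1.42.0, limma 3.58.1 and a fit blocked on the replicate number were alternatives. The replicate numbers pair the samples, since same-numbered populations came from the same pool of mice. The correlations of their deviations from the population means over the 1161 genes were 0.057, -0.018 and 0.0013 for replicates 1, 2 and 3. On simulated counts of 1161 genes edgeR recovered 20%, 92%, 100% and 100% of genes changed 2-fold, 4-fold, 16-fold and 64-fold, with 2.5% of its calls false. The simulation gave all genes the same dispersion (variance beyond counting), raised very low means and changed only part of the genes. Fitted dispersions were 0.087 for *BGN*, 1.02 for *DCN* and 0.541 for *LUM*, so these rates need not hold for the 3 genes or for a table of selected genes.

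The 3 genes, the gene lists and the rules were chosen with earlier results of these data known. Named are the 3 genes, partner genes found in the table, with values for those changed at least 2-fold and, outside this rule, a fold change for *B3GAT3*, *TGFB2* and *TIMP1*, marker lists by their counts and sums, and the 5 genes of nearest profile among those with a symbol and at least 50 counts in all. The values of 1 gene are not reported here, and it was left out of the lists and profiles. Positions (GRCh38) were taken from GENCODE release 44 by identifier for 1157 of the 1161 genes. Tables were made with pandas 2.3.3 and numpy 2.4.6 in Python 3.11.15, intervals with scipy 1.17.1 and plots with matplotlib 3.10.9.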

Additional observations from a re-analysis of the deposited data

How the results depend on the processing

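The order and direction of the 3 genes rest on 3 libraries per population, on a table of selected genes and on few reads in proliferating cells. With limma on log2(normalized read count + 5) the log2 fold changes were 8.36 for *BGN*, 5.45 for *DCN* and 6.93 for *LUM*. Leaving out 1 library at a time gave 8.59 to 9.07 for *BGN*, 7.63 to 9.07 for *DCN* and 7.20, without dormant replicate 3, to 9.16 for *LUM*. The highest over the lowest dormant library was 1.02 to 1.68 for *BGN* (1.02 without replicate 2), 1.27 to 30.8 for *DCN* and 3.13 to 13.0 for *LUM*, with 1.27 and 3.13 without replicate 3. The spread of *DCN* thus rests on that library, and without dormant replicate 1 that of *LUM* was 4.17. Per kilobase of exon *BGN* and *DCN* took 90.7% and 3.49% in dormant replicate 1, 87.9% and 1.59% in replicate 2, and 55% and 0.0672% in replicate 3, where *LUM* took 44.9%. Per kilobase of the principal transcript, added after the data had been seen, *BGN* and *DCN* took 88.2% and 6.27% in replicate 1, and *BGN*, *DCN* and *LUM* took 87.0%, 2.90% and 10.1% in replicate 2 and 55.5%, 0.125% and 44.3% in replicate 3. Scaling by the totals of the listed genes moved the median log2 fold change by 0.29 and left 372 genes called lower, against 581. With the replicate number as a block, 544 genes were called higher and 553 lower, the log2 fold changes were 8.84, 7.51 and 8.11 for *BGN*, *DCN* and *LUM*, and no call of a partner gene changed. The filter of 10 counts in 3 libraries removed no gene. Of 132 values under an alternative 109 were classed as unchanged. For fold changes and for the spread of dormant libraries this meant a shift smaller than the replicate SD on the log2 scale. For shares it meant a value inside the counting interval, and for numbers of called genes a number close to the main one. Many of the 132 values could hardly change. These were shares with counts divided by 2, fits with the filter that removed no gene, and numbers of called genes in a table of selected genes. The number classed as unchanged is therefore no measure of how stable the results are. Why the remaining values changed was not tested. The depth of the libraries is not known from the table, and a count of 0 for *DCN* allows up to 3 reads.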
